A study of Drosophila melanogaster with 9 samples.

Results

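Flight muscle that lacks its own actin was compared with flight muscle that lacks its own myosin. The comparison used 6 of the 9 arrays of the study, chosen by the genotype in the sample labels. Act88FKM88 (3 arrays) carries a mutant allele of Act88F, the actin gene of this muscle, and Mhc7 (3 arrays) one of Mhc, the gene for myosin heavy chain. The title of the study counts both among the nulls. Canton-S, a wild-type laboratory strain, has the other 3 arrays and is used here for the wild-type level and for the estimate of spread. All flies were adult males aged 1 to 2 days, reared at 25 °C, and 6 µg of total RNA, taken with TRIzol from muscle dissected out of thoraces kept in cold ethanol, was labelled for each Affymetrix Drosophila Genome 2.0 array. The arrays of a genotype are described as biological replicates and are named here by genotype and number, such as Mhc7 2. The labels do not give the strain background of the mutant stocks, so an allele and its stock cannot be told apart. The dissected tissue can also hold nerve, trachea, fat body and other muscles, and in such bulk RNA fewer cells of a type and less RNA per cell cannot be told apart.

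The indirect flight muscle powers the wing beat of the fly with a near crystalline lattice of thin and thick filaments. Thin filaments are built from actin with tropomyosin and troponin and are anchored in the Z-disc, while thick filaments are built from myosin with paramyosin and associated proteins and are joined at the M-line, where obscurin lies. Prefoldin and the chaperonin CCT fold new actin and tubulin, and the proteasome degrades proteins marked with ubiquitin. Mitochondria are packed between the myofibrils, and their own ribosomes, whose proteins are encoded in the nucleus, translate the few respiratory subunits of the mitochondrial genome.

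Levels are the deposited log2 RMA values, and a difference is Act88FKM88 minus Mhc7 on the log2 scale with its standard error (SE, n = 3 arrays per genotype), so that 1 stands for 2-fold. To pass, a difference had to be at least 2-fold with an adjusted p (limma, Benjamini-Hochberg) under 0.1. Of 18769 probe sets, 336 met both (1.79%), with 142 higher in Act88FKM88 and 194 lower, and in all 336 the 3 Act88FKM88 arrays lay apart from the 3 Mhc7 arrays. At an unadjusted p under 0.05 there were 2485 probe sets. The 292 with a single named gene stood for 282 genes, 118 higher and 164 lower. With 1 probe set per gene, 0.943% of 11983 genes passed as higher and 1.36% as lower. For comparison with the gene lists, all Act88FKM88 arrays lay above all Mhc7 arrays for 8.89% of genes and below them for 10.8%, and the median difference over all genes was -0.01. The difference was below 0 for 52.6% of all genes.

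The balance of higher and lower genes changed with level. Of genes with a mean level under 4, where 79.1% of probe sets lay (array medians 3.05 to 3.12), 19 passed as higher and 4 as lower. Between 6 and 8 it was 21 higher and 74 lower, with a median difference of -0.20 over 846 genes, and between 8 and 10 it was 6 higher and 44 lower, with a median of -0.30 over 366 genes. At 10 or more it was 2 higher and 4 lower, with a median of -0.11 over 220 genes. The share of genes below 0 was 63.6% between 6 and 8, 68.0% between 8 and 10 and 67.3% at 10 or more. The 95th percentile of the array was 7.74 ± 0.20 in Act88FKM88 and 7.99 ± 0.20 in Mhc7 (SD, n = 3 each; 7.36 ± 0.11 in Canton-S; exact permutation p = 0.2, two-sided, where 0.1 is the smallest value that 3 against 3 arrays allow). The 18S rRNA control was at 8.59, 8.96 and 6.42 in Act88FKM88, against 9.70, 10.02 and 8.89 in Mhc7, with Act88FKM88 3 far below the rest (exact permutation p = 0.2, two-sided). The array also holds 14 probe sets for bacterial hybridization controls, which are not genes of the fly. Their mean log2 level was 8.76, 8.73 and 8.52 in the Act88FKM88 arrays, against 10.39, 10.64 and 10.52 in the Mhc7 arrays. Each of the 14 was lower in every Act88FKM88 array than in every Mhc7 array, and the part of either control in the differences between genes was not tested. When quantile normalization was repeated, 287 probe sets passed, 141 higher and 146 lower.

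**Figure D1:**
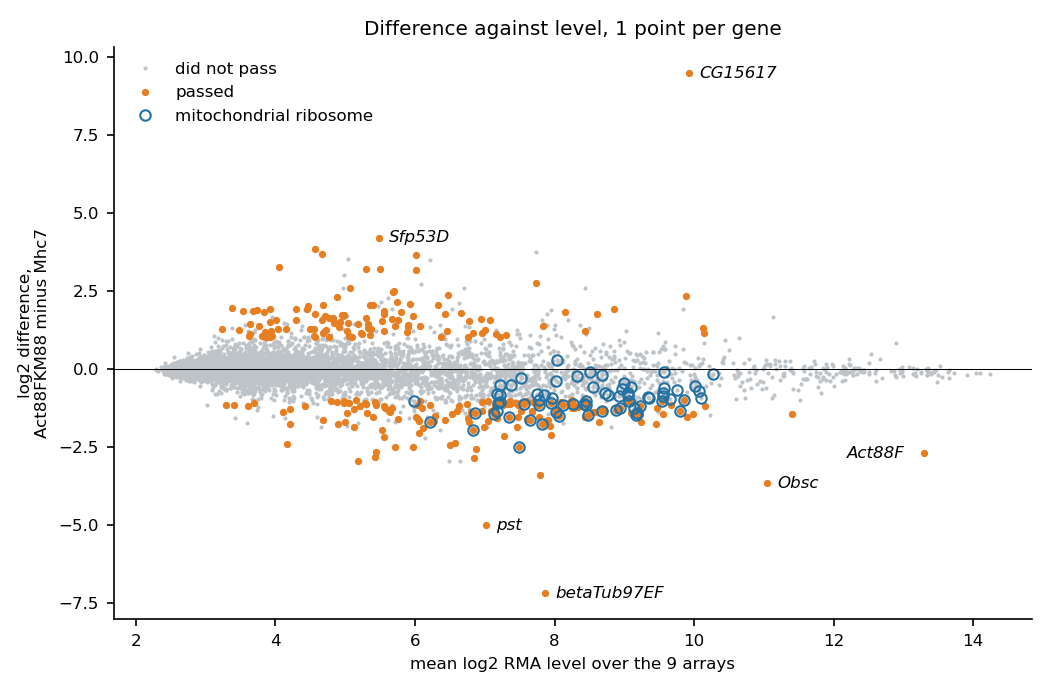
Difference of each gene (vertical axis, log2, Act88FKM88 minus Mhc7) against its mean log2 RMA level over the 9 arrays (horizontal axis). Orange points passed, grey points did not, and blue circles mark the 69 genes of the mitochondrial ribosome, of which 68 lie below 0.

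Act88F itself checked the labels of the actin mutant. Its log2 level was 11.57, 11.79 and 11.03 in the Act88FKM88 arrays, against 14.10, 14.25 and 14.14 in the Mhc7 arrays and 14.10, 14.32 and 14.36 in the Canton-S arrays. All 3 Act88FKM88 arrays were far below the other 6, and Mhc7 lay near Canton-S. The difference was -2.70 ± 0.17 (adjusted p = 7.79e-05). The position of its probes in the mutant gene was not analysed, and the myosin heavy chain gene itself was not analysed here, so the Mhc7 label has no such check. Among the other measured actins, Act79B had a difference of 1.66 ± 0.82 (adjusted p = 0.451) and Act87E one of 0.35 ± 0.67 (adjusted p = 0.892), so neither passed.

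Obsc, which encodes the M-line protein obscurin of the thick filament lattice, was low in the actin mutant rather than in the myosin mutant. Its level was 8.67, 9.15 and 8.19 in Act88FKM88, against 12.34, 12.42 and 12.23 in Mhc7 and 11.98, 12.35 and 12.08 in Canton-S. The Act88FKM88 arrays stood apart from both other genotypes, with a difference from Mhc7 of -3.66 ± 0.21 (adjusted p = 4.14e-05). A second probe set for Obsc, at levels of 3.16 to 3.53 in the 6 mutant arrays, gave -0.28 ± 0.12 (adjusted p = 0.376). Obsc was the 1 of 10 thick and connecting filament genes that passed. The myosin chaperone gene unc-45 had -1.11 ± 0.44 (adjusted p = 0.318). The light chain genes Mlc1 (-0.14 ± 0.11) and Mlc2 (0.07 ± 0.13), the flightin gene fln (-0.14 ± 0.11), which encodes a myosin rod binding protein of this muscle, and the twitchin-like gene bt (-0.16 ± 0.20) were all close to 0, and none of these 4 passed (adjusted p from 0.667 to 0.887).

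The thin filament genes other than Act88F showed smaller differences. The largest of them, TpnC41C at 2.58 ± 0.88, did not pass (adjusted p = 0.22). TpnC4, the main troponin C of the flight muscle, had levels of 13.18, 13.28 and 13.19 in Act88FKM88, against 12.35, 12.56 and 12.29 in Mhc7 and 12.85, 13.16 and 13.24 in Canton-S. The Act88FKM88 and Mhc7 arrays did not overlap, and the difference was 0.82 ± 0.12 (adjusted p = 0.00941), short of 2-fold. The troponin T gene up (-0.03 ± 0.11) and the tropomyosin gene Tm2 (0.01 ± 0.11) were close to 0. By its brightest probe set, no gene passed among 5 troponin and tropomyosin genes or 6 genes of thin filament ends. Nor did any among 20 Z-disc and attachment genes (median 0.06) or 10 regulators of flight muscle fate (median -0.01). In the last list the spalt-related gene salr had levels of 5.36, 5.37 and 5.40 in Act88FKM88 and 4.75, 4.45 and 4.80 in Mhc7, a difference of 0.71 ± 0.14 (adjusted p = 0.0346), under 2-fold.

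Several sarcomere genes had probe sets that disagreed in size, in direction or in whether they passed. Strn-Mlck, which encodes the myosin light chain kinase and stretchin products, was at 0.00 ± 0.11 in its brightest probe set, while a second one passed at 1.99 ± 0.26 (adjusted p = 0.00598). That second probe set had levels of 8.47, 8.97 and 8.15 in Act88FKM88, against 6.25, 7.08 and 6.29 in Mhc7 and 8.21, 8.52 and 8.65 in Canton-S, so it was Mhc7 that stood apart. For tmod, whose product caps the pointed ends of thin filaments, both probe sets were higher in every Act88FKM88 array than in every Mhc7 array. The brightest tmod probe set gave 1.42 ± 0.62 (adjusted p = 0.371). A second passed at 2.12 ± 0.39 (adjusted p = 0.0277), a call lost without Mhc7 3 (adjusted p = 0.112). The 2 probe sets of the myofilin gene Mf gave -0.62 ± 0.25 and 2.05 ± 0.65, and neither passed (adjusted p = 0.342 and 0.183). For the titin-like gene sls the values ran from -0.58 ± 0.27 to 0.86 ± 0.16, and the highest value was under 2-fold (adjusted p = 0.0304). Which transcripts these probe sets detect was not analysed here.

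betaTub97EF, which encodes a beta-tubulin, had the largest lower difference of all named genes. Its level was 3.27, 3.10 and 3.45 in Act88FKM88, against 10.52, 10.38 and 10.45 in Mhc7 and 9.65, 10.08 and 9.83 in Canton-S. The Act88FKM88 arrays were near the array medians, where background limits the size of the difference of -7.17 ± 0.13 (adjusted p = 1.2e-08). It was the 1 of 8 tubulin genes (4 with a mean level under 4) that passed, and 2 passed without Mhc7 1. Among 19 genes of actin dynamics (9 with a mean level under 4) 1 passed, coro, which encodes the actin binding protein coronin. Its level was 10.83, 11.11 and 10.88 in Act88FKM88 and 9.60, 9.94 and 9.84 in Mhc7, a difference of 1.14 ± 0.15 (adjusted p = 0.00556).

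**Figure D2:**
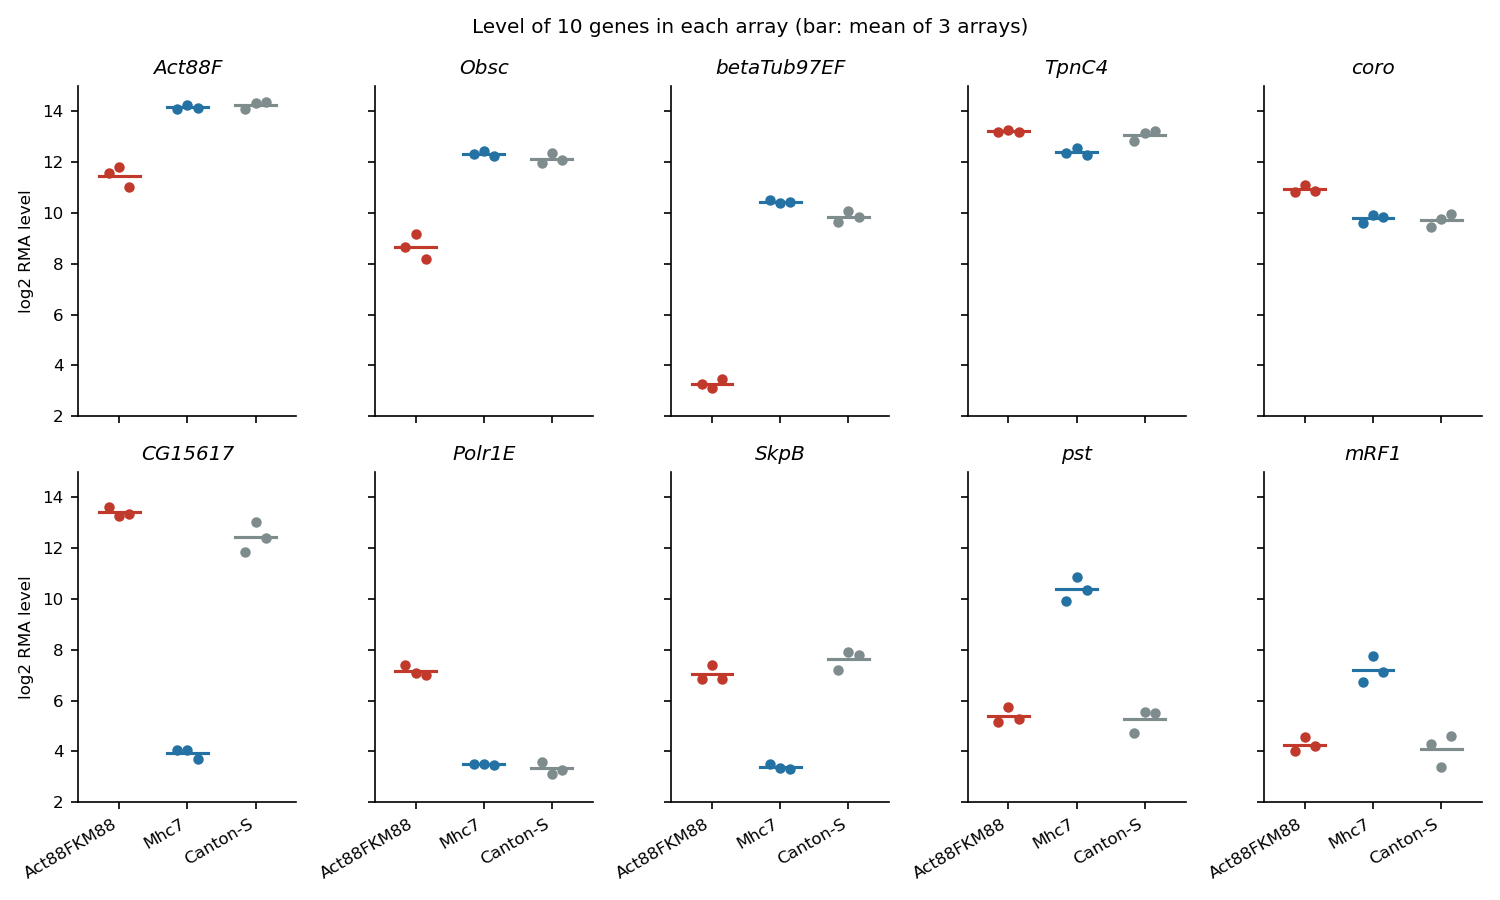
Log2 RMA level (vertical axis) of 10 genes in each array of Act88FKM88, Mhc7 and Canton-S, with a bar at the mean of 3 arrays. Act88F, Obsc and betaTub97EF are low in the 3 Act88FKM88 arrays alone, CG15617 and SkpB are low in the 3 Mhc7 arrays alone, and pst is high in the 3 Mhc7 arrays alone.

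The genes that encode proteins of the mitochondrial ribosome were lower in the actin mutant than in the myosin mutant as a group. Of 69 measured, 29 passed as lower (42%, against 1.36% of all genes), none passed as higher and 68 were below 0, with a median of -0.996. In 51 of them all Act88FKM88 arrays lay below all Mhc7 arrays (73.9%, against 10.8% of all genes). Both subunits took part, with 19 of 44 genes of the large subunit and 10 of 25 of the small subunit lower. Genes of the same level did not differ as often: between levels 6 and 8, 11 of 23 mitochondrial ribosomal genes were lower (47.8%), against 63 of 823 other genes (7.65%). Between 8 and 10 it was 18 of 41 (43.9%), against 26 of 325 other genes (8.0%).

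The mean level of the 69 genes was 8.18, 8.67 and 7.88 in the Act88FKM88 arrays, against 8.86, 9.55 and 9.24 in the Mhc7 arrays and 7.77, 7.62 and 8.20 in the Canton-S arrays. Every Mhc7 array was above every Act88FKM88 array, although Act88FKM88 2 came close to Mhc7 1, and the Canton-S arrays overlapped Act88FKM88. The Canton-S mean lay below both mutants for 57 of the 69 genes (82.6%), as it did for 69.6% of all 1432 genes with a mean level of 6 or more and for 85.3% of the cytosolic ribosomal protein genes. The median difference from Canton-S was 0.43 in Act88FKM88 and 1.42 in Mhc7, and these 2 values share the Canton-S arrays. Over the 1432 genes with a mean level of 6 or more it was 0.34 in Act88FKM88 and 0.53 in Mhc7, so the value of 0.43 lay near that of other genes. The count of 29 depended on single arrays: it was 6 without Act88FKM88 1, 12 without Act88FKM88 3, 12 without Mhc7 2 and 7 without Mhc7 3, with medians between -0.82 and -1.16 over the 9 fits that left out 1 array. It was 16 with quantile normalization repeated (median -0.74) and 19 with the intensity trend of each array removed (median -0.83).

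Single members show the spread behind these counts. mRpL21, a protein of the large subunit, had levels of 6.20, 7.02 and 5.91 in Act88FKM88, against 8.46, 9.20 and 8.97 in Mhc7 and 7.43, 6.75 and 7.51 in Canton-S. Its difference of -2.50 ± 0.32 (adjusted p = 0.00526) was the largest of the list. mRpL44, also of the large subunit, had 8.62, 9.17 and 8.45 in Act88FKM88, against 10.00, 10.38 and 10.23 in Mhc7 and 8.32, 8.36 and 8.95 in Canton-S, and mRpL54 had the same difference as mRpL44, -1.46 ± 0.22 (adjusted p = 0.0105 for mRpL54 and 0.0113 for mRpL44). mRpS22, of the small subunit, passed at -1.25 ± 0.17 (adjusted p = 0.00618). In these 4 genes no Act88FKM88 array reached a Mhc7 array, and each call held whichever array was left out. With quantile normalization repeated mRpS22 was at -0.97, under 2-fold. The 1 gene above 0, mRpL48, had 0.27 ± 0.25 (adjusted p = 0.738).

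**Figure D3:**
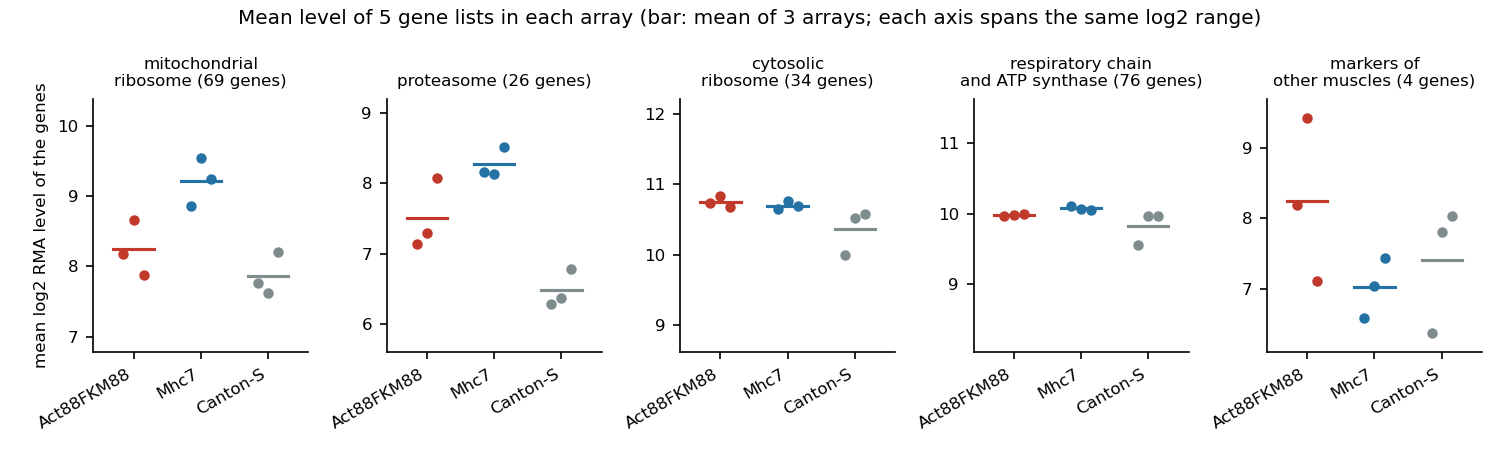
Mean log2 RMA level (vertical axis) of the genes of 5 lists in each array of Act88FKM88, Mhc7 and Canton-S, with a bar at the mean of 3 arrays. The 3 Mhc7 arrays lie at 8.86 to 9.55 for the mitochondrial ribosome, above the Act88FKM88 arrays at 7.88 to 8.67, while Act88FKM88 3 lies close to Mhc7 for the proteasome and the markers of other muscles scatter within each genotype.

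Other nuclear genes serve the mitochondrial genome. Of 22 genes for mitochondrial DNA upkeep, transcription and translation, a list added after the values were seen, 6 passed as lower, none as higher, 20 were below 0 and the median was -0.79. mRF1, the mitochondrial peptide release factor, had levels of 4.01, 4.55 and 4.20 in Act88FKM88, against 6.73, 7.77 and 7.12 in Mhc7 and 4.31, 3.38 and 4.62 in Canton-S, a difference of -2.95 ± 0.34 (adjusted p = 0.00332). Act88FKM88 and Canton-S were alike in range and Mhc7 was above both. bonsai, which encodes a mitochondrial ribosomal protein, was lower by -1.71 ± 0.27 (adjusted p = 0.0129). TFAM, which packages mitochondrial DNA and starts its transcription, passed at -1.05 ± 0.14 (adjusted p = 0.00628), a call lost without Act88FKM88 3 (-0.95), with quantile normalization repeated (-0.79) and with the intensity trend removed. OXA1L, which inserts proteins into the inner membrane, passed at -1.06 ± 0.22 (adjusted p = 0.0453) and lost its call without Act88FKM88 1, Act88FKM88 3, Mhc7 2 or Mhc7 3 (adjusted p up to 0.176) and under both of these settings. The count of 6 was 3 without Act88FKM88 1, 2 without Act88FKM88 3, and 3 without Mhc7 2 or without Mhc7 3.

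Cofactors of the respiratory chain are made in mitochondria. Of 9 genes for coenzyme Q, the electron carrier of the respiratory chain, 4 passed as lower and none as higher, and this count held in all 9 fits that left out 1 array. Coq6 had levels of 8.15, 8.43 and 8.12 in Act88FKM88, against 9.48, 9.59 and 9.56 in Mhc7 and 8.27, 8.38 and 8.39 in Canton-S. The Act88FKM88 arrays lay with Canton-S and apart from Mhc7, with a difference of -1.31 ± 0.10 (adjusted p = 0.000209). The others were Pdss2, for the side chain (-1.66 ± 0.26, adjusted p = 0.0124), Coq5 (-1.59 ± 0.21, adjusted p = 0.00628) and Coq9 (-1.20 ± 0.19, adjusted p = 0.0146). Of 12 genes for heme and iron-sulfur clusters 2 passed as lower. FeCH, the ferrochelatase that completes heme, had 7.11, 7.55 and 7.16 in Act88FKM88, against 8.65, 9.89 and 9.61 in Mhc7 and 7.04, 6.83 and 7.74 in Canton-S, a difference of -2.11 ± 0.33 (adjusted p = 0.0132). The cysteine desulfurase gene Nfs1 passed at -1.62 ± 0.16 (adjusted p = 0.00147). Both lists were added after the values were seen. The calls of these 6 genes were kept in every fit that left out 1 array, and with quantile normalization repeated Coq9 was at -0.96, under 2-fold.

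Mitochondrial protein quality control and import gave 3 of 15 and 2 of 17 genes as lower, with none higher. Trap1, the mitochondrial Hsp90, had levels of 5.43, 5.64 and 5.39 in Act88FKM88, against 7.63, 8.49 and 8.01 in Mhc7 and 7.21, 6.88 and 7.21 in Canton-S. Act88FKM88 was the lowest genotype and Mhc7 the highest, and the difference was -2.56 ± 0.20 (adjusted p = 0.000242). Afg3l2, a protease of the inner membrane, had 9.36, 9.74 and 9.26 in Act88FKM88 and 10.44, 10.67 and 10.72 in Mhc7, a difference of -1.16 ± 0.13 (adjusted p = 0.00335) that was -0.91 with quantile normalization repeated. The matrix protease gene Lon passed at -1.05 ± 0.25 (adjusted p = 0.0668), a call lost in 7 of the 9 fits and kept when Act88FKM88 2 or Mhc7 1 was left out (highest adjusted p 0.238). It was -0.97 with quantile normalization repeated. Of the import genes, ttm50 passed at -1.09 ± 0.26 (adjusted p = 0.0707), lost without Act88FKM88 1, Act88FKM88 3, Canton-S 1, Mhc7 2 or Mhc7 3 (adjusted p up to 0.259), and CG11779 at -1.31 ± 0.23 (adjusted p = 0.023), lost without Mhc7 3 (adjusted p = 0.103). With quantile normalization repeated ttm50 was at -0.87. The import count of 2 was therefore 1 or 0 without any of these 5 arrays.

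The respiratory chain itself showed no call. None of its 76 measured genes, with ATP synthase included and 18 at a mean level under 4, passed by limma or by SAM. The median was -0.10, although 63 of the 76 were below 0, against 52.6% of all genes and 67.3% of genes with a mean level of 10 or more. In 37 of them (48.7%, against 10.8% of all genes) all Act88FKM88 arrays lay below all Mhc7 arrays. The list mean was 9.96, 9.98 and 9.99 in Act88FKM88, against 10.11, 10.06 and 10.05 in Mhc7, so the groups did not overlap, with a difference of -0.10 between their means. With the intensity trend of each array removed the median was 0.01. None of 34 cytosolic ribosomal protein genes passed, and their median was 0.06. Of 11 fatty acid oxidation genes 3 passed as lower: Mtpbeta of the trifunctional protein (-1.03 ± 0.20, adjusted p = 0.0315), the acyl-CoA dehydrogenase gene Arc42 (-1.07 ± 0.22, adjusted p = 0.0434) and the carnitine acetyltransferase gene CRAT (-1.09 ± 0.27, adjusted p = 0.0828). None of the 3 passed without Act88FKM88 1, Act88FKM88 3, Mhc7 2 or Mhc7 3 or with quantile normalization repeated, while 1 other gene of the list passed as lower without Mhc7 3. Of 12 citric acid cycle genes 1 passed, the pyruvate carboxylase gene PCB (-1.46 ± 0.31, adjusted p = 0.0449), and leaving out Act88FKM88 1, Mhc7 2 or Mhc7 3 ended the call (adjusted p up to 0.172).

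Of 20 glycolysis and glycogen genes 2 passed as higher and none as lower, with 10 on each side of 0 and a median of -0.01. UGP, which makes the sugar donor of glycogen, had 4.01, 5.19 and 4.18 in Act88FKM88, against 3.37, 3.54 and 3.31 in Mhc7 (1.06 ± 0.26, adjusted p = 0.0796), and the branching enzyme gene AGBE had 8.85, 8.80 and 8.73, against 8.17, 6.92 and 7.64 in Mhc7 (1.22 ± 0.31, adjusted p = 0.0936). Neither set overlapped, but both calls were lost in 7 of the 9 fits. UGP kept its call without Act88FKM88 1 or Act88FKM88 3 and AGBE without Canton-S 1 or Mhc7 1, with adjusted p up to 0.24 and 0.276. The count of 2 was 1 without Act88FKM88 1, Act88FKM88 3, Canton-S 1 or Mhc7 1 and 0 without any other array. With quantile normalization repeated UGP was at 0.98, under 2-fold.

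**Figure D4:**
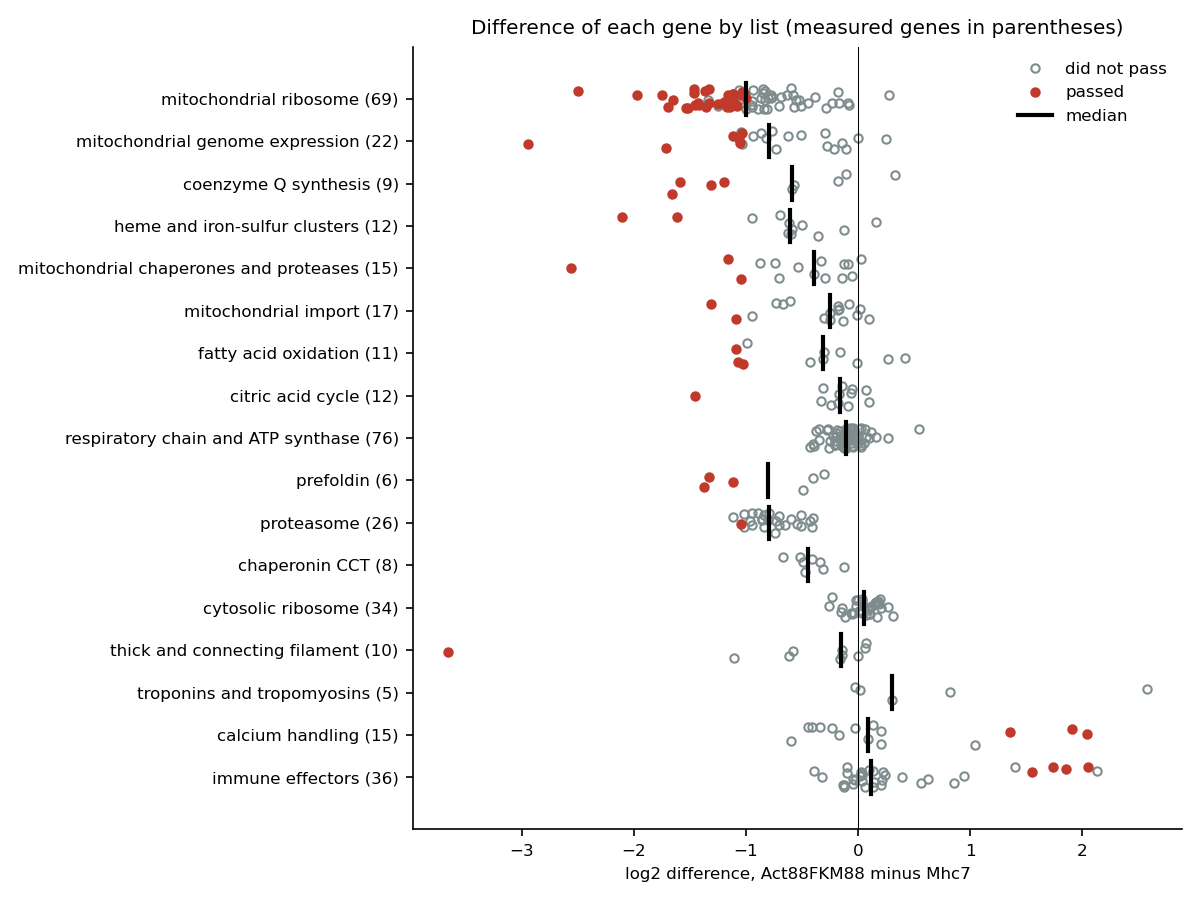
Log2 difference of each measured gene (horizontal axis, Act88FKM88 minus Mhc7) in 17 lists, with the number of measured genes in parentheses. Filled points passed, open points did not and black bars are list medians, which lie at -0.996 for the mitochondrial ribosome and at -0.10 for the respiratory chain.

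Proteasome subunits were all on the lower side in Act88FKM88, but with 1 array apart from the other 2. All 26 measured genes were below 0 (median -0.80) and 1 passed, the ATPase gene Rpt4 (-1.04 ± 0.25, adjusted p = 0.0769). The mean of the 26 genes was 7.14, 7.30 and 8.08 in the Act88FKM88 arrays, against 8.16, 8.13 and 8.52 in the Mhc7 arrays and 6.28, 6.38 and 6.78 in the Canton-S arrays. Act88FKM88 3 lay close to Mhc7, and Canton-S was below both mutants for all 26 genes. Without Act88FKM88 3, 15 subunits passed as lower. None passed without Act88FKM88 1, Act88FKM88 2, Canton-S 1, Canton-S 2 or Mhc7 3, 2 passed without Canton-S 3, and none passed with quantile normalization repeated (median -0.55). The 13 testis forms of proteasome subunits had a median of -0.01 and none passed. All 13 had a mean level under 4, with list means of 2.87 in Act88FKM88 and 2.86 in Mhc7, below the array medians. At such levels no contrast with the other subunits can be drawn.

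Among the folding genes each gene that passed was lower in Act88FKM88. Hsc70-4, the main constitutive Hsp70 of the cytosol, had levels of 9.39, 9.71 and 8.90 in Act88FKM88, against 10.62, 11.06 and 10.95 in Mhc7 and 9.37, 9.50 and 9.63 in Canton-S. Mhc7 lay above the other genotypes and the difference was -1.54 ± 0.20 (adjusted p = 0.00545). Hsc70-3, the Hsp70 of the endoplasmic reticulum, passed at -1.01 ± 0.14 (adjusted p = 0.00877), and fell under 2-fold without Act88FKM88 1, Act88FKM88 3 or Mhc7 2, with quantile normalization repeated (-0.79) and with the trend removed. The cytosolic chaperone list of 18 genes also holds Hsc70-3, so its 2 lower calls were Hsc70-4 and this gene of the endoplasmic reticulum. Of the 18, 1 passed as lower without any of those 3 arrays and 4 without Act88FKM88 2, and 1 was higher without Act88FKM88 3. Of 6 prefoldin genes, a list added after the values were seen, 3 passed as lower, Pfdn1 (-1.38 ± 0.31), mgr (-1.33 ± 0.27) and Pfdn6 (-1.12 ± 0.22), with adjusted p of 0.0564, 0.0373 and 0.037. None of these 3 passed without Act88FKM88 1, Act88FKM88 3 or Mhc7 3, and 1 passed without Mhc7 2. Pfdn6 was at -0.89 with quantile normalization repeated. The 8 CCT genes were all below 0 (median -0.44) and none passed.

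Of 21 ubiquitin and ubiquitin ligase genes 2 passed as higher and 1 as lower. TER94, the segregase known as p97 in mammals, had 7.84, 8.01 and 8.46 in Act88FKM88, against 9.19, 9.54 and 9.38 in Mhc7 and 7.38, 7.30 and 7.46 in Canton-S, a difference of -1.27 ± 0.16 (adjusted p = 0.00466) that was -0.96 with quantile normalization repeated. The polyubiquitin gene Ubi-p5E had 11.13, 11.13 and 10.80 in Act88FKM88, against 9.87, 9.44 and 9.78 in Mhc7 and 9.44, 10.13 and 9.39 in Canton-S. Here Act88FKM88 lay above both other genotypes, by 1.32 ± 0.20 over Mhc7 (adjusted p = 0.0129). SkpB, of the Skp1 family of ubiquitin ligase adaptors, had 6.86, 7.41 and 6.87 in Act88FKM88, against 3.50, 3.36 and 3.30 in Mhc7 and 7.21, 7.90 and 7.80 in Canton-S. Mhc7 alone was low, and the difference was 3.66 ± 0.20 (adjusted p = 3.19e-05). None of 25 autophagy genes passed (median -0.07), and 12 of them had a mean level under 4.

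Calcium handling had 3 of 15 genes (6 with a mean level under 4) higher in Act88FKM88 and none lower. Orai, the pore of the store-operated calcium channel, was represented by 2 probe sets and both passed. The brighter one had levels of 8.38, 8.07 and 6.59 in Act88FKM88, against 5.53, 5.35 and 6.03 in Mhc7 and 5.23, 6.50 and 5.33 in Canton-S (2.05 ± 0.48, adjusted p = 0.0667), and the other gave 3.11 ± 0.41 (adjusted p = 0.00624). The dimmer probe set kept its call in all 9 fits, while the brighter one lost it without Act88FKM88 1, Act88FKM88 2 or any Mhc7 array (adjusted p up to 0.238). Calx, a sodium-calcium exchanger of the cell membrane, had 5.55, 5.61 and 5.01 in Act88FKM88, against 3.35, 3.27 and 3.83 in Mhc7, with Canton-S at 3.80 to 4.18. Its difference was 1.91 ± 0.20 (adjusted p = 0.00176). The calcium binding protein gene regucalcin passed in its brightest probe set at 1.36 ± 0.25 (adjusted p = 0.0253), lost without Act88FKM88 1 or Mhc7 3 (0.112 at most), and the list count of 3 was 1 without either of these arrays.

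Immune effector genes had 4 of 36 members (27 with a mean level under 4) higher in Act88FKM88 and none lower. The Drosomycin-like gene Drsl5 had 6.61, 6.68 and 6.73 in Act88FKM88, against 4.38, 4.97 and 4.51 in Mhc7 and 4.55, 4.36 and 5.46 in Canton-S, a difference of 2.05 ± 0.26 (adjusted p = 0.00562). Its relative Drsl3 had 1.86 ± 0.21 (adjusted p = 0.00302), with Mhc7 at 2.75 to 3.09, near the array medians. IM33 (1.74 ± 0.39, adjusted p = 0.0573) and the Bomanin gene BomS2 (1.55 ± 0.38, adjusted p = 0.0822) passed as well. The call of IM33 was lost without Act88FKM88 1, Act88FKM88 2 or any Mhc7 array (adjusted p up to 0.182). That of BomS2 held without Act88FKM88 2 or Mhc7 1 and was lost without any of the other 7 arrays (adjusted p up to 0.23). Repeated quantile normalization ended the BomS2 call too (adjusted p = 0.128). The count of 4 was 2 without Act88FKM88 1, Mhc7 2 or Mhc7 3. Of 12 hemocyte markers none passed and 10 had a mean level under 4, with a median of 0.04. In 4 of the 12 all Act88FKM88 arrays lay above all Mhc7 arrays, against 8.89% of all genes. The list means were 3.33 to 3.45 in Act88FKM88 and 3.18 to 3.27 in Mhc7, which did not overlap. The hemocyte genes Hml, for hemolectin, and Pxn, for peroxidasin, averaged 5.13 and 4.42 in Act88FKM88, against 4.42 and 3.82 in Mhc7, without overlap (0.71 ± 0.21, adjusted p = 0.155, and 0.60 ± 0.20, adjusted p = 0.194). Fat body markers, from the tissue known to secrete most immune peptides, had 0 of 11 past the threshold, a median of 0.03 and list means of 5.30 to 5.55 in Act88FKM88 and 5.12 to 5.88 in Mhc7. The part of either cell type in the immune genes was not tested.

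Among 81 cytochrome P450 genes (69 with a mean level under 4), a family of oxidases known for detoxification, 2 passed as higher and 2 as lower. The arrays did not overlap for 9 as higher and 10 as lower, near the shares over all genes. Cyp4e3 had 8.10, 8.44 and 7.50 in Act88FKM88, against 5.71, 3.68 and 5.06 in Mhc7 and 3.46, 3.63 and 3.87 in Canton-S (3.19 ± 0.45, adjusted p = 0.00821), and Cyp28d1 passed at 2.58 ± 0.17 (adjusted p = 8.48e-05). Cyp4e1 had 4.03, 4.85 and 4.15 in Act88FKM88, against 5.61, 6.05 and 5.43 in Mhc7 and 6.78, 7.10 and 6.63 in Canton-S (-1.35 ± 0.24, adjusted p = 0.0221). So these 2 genes of the Cyp4e family differed in opposite directions. Cyp9c1 passed at -1.18 ± 0.22 (adjusted p = 0.0301), lost without Act88FKM88 1 or Mhc7 2, where the P450 count of 2 lower was 1.

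Among 34 glutathione S-transferase genes (17 with a mean level under 4) 1 passed as higher and 2 as lower. GstD3 had 4.18, 4.21 and 4.02 in Act88FKM88, against 5.66, 5.70 and 5.97 in Mhc7 (-1.64 ± 0.17, adjusted p = 0.00174), while Canton-S at 3.82 to 4.52 spanned the Act88FKM88 arrays. GstD1 passed at -1.43 ± 0.32 (adjusted p = 0.0591), lost without Act88FKM88 1 or any Mhc7 array, and GstE1 at 1.91 ± 0.37 (adjusted p = 0.0308), lost without Mhc7 2 or Mhc7 3. The count of 1 higher was 2 without Mhc7 1 and 0 without Mhc7 2 or Mhc7 3, and the count of 2 lower was 1 without Act88FKM88 1, Mhc7 2 or Mhc7 3. Of 17 antioxidant genes 2 passed as lower, the mitochondrial peroxiredoxin gene Prx3 (-1.20 ± 0.23, adjusted p = 0.0289) and the thioredoxin reductase gene Trxr1 (-1.03 ± 0.14, adjusted p = 0.00735). Without Mhc7 2 or Mhc7 3 neither passed, and without Act88FKM88 1 or Act88FKM88 3 only 1 of the 2 did. With quantile normalization repeated Trxr1 was at -0.78, and its call was lost with the intensity trend removed as well.

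Growth and stress regulators gave single genes. ImpL2, a secreted protein that binds insulin-like peptides, had 5.14, 5.02 and 6.24 in Act88FKM88, against 7.51, 7.63 and 8.37 in Mhc7 and 5.48, 6.83 and 6.99 in Canton-S. Its difference of -2.37 ± 0.45 (adjusted p = 0.0306) was the 1 call among 15 insulin, TOR and growth genes and did not hold without Act88FKM88 1 or Mhc7 3 (0.134 at most). The Fos gene kay was the 1 of 14 JNK and cell death genes (10 with a mean level under 4) that passed, at 7.97, 8.33 and 8.08 in Act88FKM88 and 7.03, 7.19 and 6.88 in Mhc7 (1.09 ± 0.14, adjusted p = 0.00598). Its call was lost without Act88FKM88 2, where the difference was just under 2-fold (0.99). Of 41 translation initiation genes 3 passed as lower, the eIF3 subunit genes eIF3a (-1.02 ± 0.10, adjusted p = 0.00175) and eIF3d1 (-1.04 ± 0.15, adjusted p = 0.00888) and the exchange factor gene eIF2Bepsilon (-1.001 ± 0.22, adjusted p = 0.0562). All 3 were lost without Mhc7 3 or with quantile normalization repeated, and 1 passed without Act88FKM88 1. None of 32 aminoacyl-tRNA synthetase genes passed, with 26 below 0 and a median of -0.36, while 3 passed as lower without Act88FKM88 2, 2 without Mhc7 1 and 1 without Act88FKM88 3 or Mhc7 3.

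Beside betaTub97EF, Obsc and others named above, large single differences came from genes outside these lists or with few known relations to muscle. CG15617 had levels of 13.63, 13.25 and 13.35 in Act88FKM88, against 4.05, 4.07 and 3.69 in Mhc7 and 11.84, 13.04 and 12.39 in Canton-S. Mhc7 alone was low, and the difference was 9.47 ± 0.26 (adjusted p = 2.42e-07). Sfp53D, a seminal fluid protein gene that neighbours CG15617 among the measured genes of chromosome arm 2R, had 7.69, 6.78 and 6.62 in Act88FKM88, against 2.54, 2.91 and 3.06 in Mhc7 and 5.32, 7.46 and 6.96 in Canton-S (4.19 ± 0.50, adjusted p = 0.00365). It was the 1 of 31 testis and accessory gland markers that passed, and 30 of the 31 had a mean level under 4. SkpB, described above, lay next to CG18343 on the same arm, and CG18343 had 6.50, 6.98 and 6.99 in Act88FKM88, against 3.88, 3.59 and 3.38 in Mhc7 and 5.25, 5.26 and 5.90 in Canton-S (3.21 ± 0.21, adjusted p = 8.48e-05). In all 4 of these genes Mhc7 was the lowest genotype.

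For several other genes higher in Act88FKM88, Canton-S lay nearer to Mhc7. Polr1E, a subunit of RNA polymerase I, had 7.38, 7.09 and 7.03 in Act88FKM88, against 3.49, 3.52 and 3.45 in Mhc7 and 3.59, 3.12 and 3.28 in Canton-S, a difference of 3.68 ± 0.13 (adjusted p = 1.41e-06). It was the 1 of 17 RNA polymerase I and nucleolar genes that passed, and 15 of the 17 had a mean level under 4. CG34324 had 6.80, 6.14 and 8.08 in Act88FKM88, against 3.24, 3.21 and 3.07 in Mhc7 (3.83 ± 0.47, adjusted p = 0.00482), and CG7272 had 9.71, 9.70 and 9.92 in Act88FKM88, against 7.06, 6.95 and 7.09 in Mhc7 (2.74 ± 0.10, adjusted p = 1.41e-06). CG4607 (2.45 ± 0.38, adjusted p = 0.0124) and CG8768 (2.38 ± 0.36, adjusted p = 0.0124) passed too, with Canton-S at 4.08 to 5.76 and 3.22 to 3.73. For the glycerol kinase gene Gk2 (3.17 ± 0.54, adjusted p = 0.0194) Canton-S ran from 4.74 to 7.26 and overlapped Act88FKM88. These calls held whichever array was left out. CG14645 (3.27 ± 0.85, adjusted p = 0.0984) held without Act88FKM88 2 or Act88FKM88 3 and was lost without any of the other 7 arrays and with quantile normalization repeated (adjusted p = 0.109). CG34217 (2.49 ± 0.57, adjusted p = 0.0625) was lost without Act88FKM88 1, Act88FKM88 2 or any Mhc7 array.

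Among the largest lower genes, pst was set by the myosin mutant. This gene, pastrel, known for resistance to a virus of the fly, had 5.15, 5.73 and 5.27 in Act88FKM88, against 9.94, 10.88 and 10.36 in Mhc7 and 4.73, 5.56 and 5.53 in Canton-S. Act88FKM88 and Canton-S overlapped, and the difference was -5.01 ± 0.29 (adjusted p = 4.14e-05). The sorbitol dehydrogenase gene Sodh2 had the same order, at 3.27, 3.42 and 3.54 in Act88FKM88, against 5.38, 6.28 and 5.80 in Mhc7 and 3.34, 3.10 and 3.35 in Canton-S (-2.41 ± 0.20, adjusted p = 0.000402). For the glycine cleavage gene ppl, Canton-S lay between the mutants: the levels were 5.94, 6.27 and 6.00 in Act88FKM88, against 8.96, 9.88 and 9.53 in Mhc7 and 7.65, 7.66 and 8.21 in Canton-S (-3.39 ± 0.24, adjusted p = 0.000115). The same held for the cuticle protein gene Cpr66D (-2.81 ± 0.24, adjusted p = 0.000454), CG34015 (-2.67 ± 0.11, adjusted p = 5.03e-06), the acetyl-CoA acetyltransferase gene Acat2 (-2.49 ± 0.16, adjusted p = 7.79e-05) and the maltase gene Mal-B2 (-2.43 ± 0.21, adjusted p = 0.00061). Low levels in the actin mutant alone were seen for the kinase gene Hipk (-2.50 ± 0.27, adjusted p = 0.00199) and CG8788 (-2.85 ± 0.38, adjusted p = 0.00598), with Canton-S means of 6.93 and 8.32 beside Mhc7 means of 6.74 and 7.53. None of the calls named from pst to CG8788 was lost when any 1 array was left out.

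**Figure D5:**
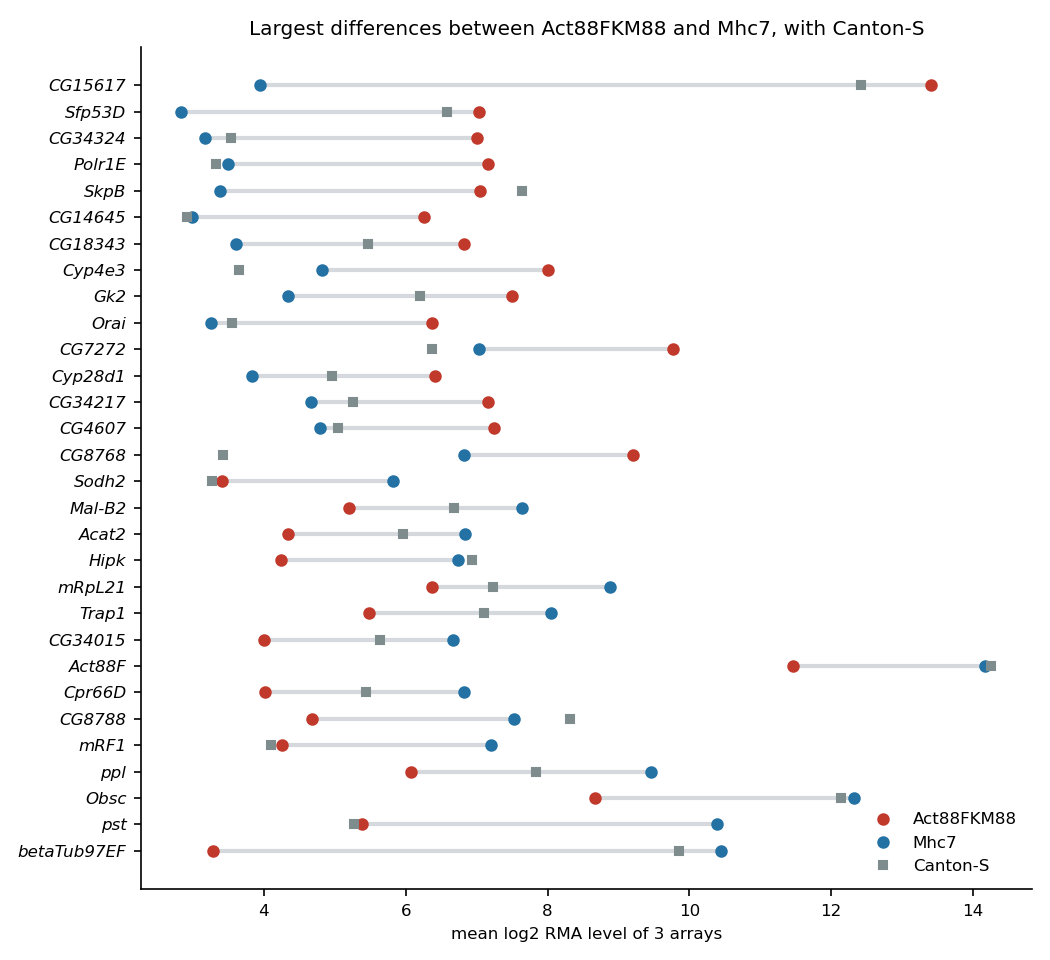
Mean log2 RMA level of 3 arrays (horizontal axis) in Act88FKM88, Mhc7 and Canton-S for the 15 genes with the largest positive and the 15 with the largest negative difference among those that passed. Canton-S lies beside Mhc7 for Polr1E, Obsc and betaTub97EF and beside Act88FKM88 for CG15617, SkpB and pst.

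Over all 336 probe sets that passed, the Canton-S mean was more often nearer to the mutant with the lower level. Of the 142 higher in Act88FKM88, the Canton-S mean was nearer to Act88FKM88 for 32 and nearer to Mhc7 for 110. Of the 194 lower in Act88FKM88, it was nearer to Act88FKM88 for 155 and nearer to Mhc7 for 39. Canton-S lay outside the range of both mutant means, on the Act88FKM88 side, for 74 of the lower probe sets, and on the Mhc7 side for 50 of the higher ones. Over all 11983 genes its mean was nearer to Act88FKM88 for 6260, and for 918 of the 1432 with a mean level of 6 or more. Among these 1432 genes Canton-S lay below both mutants for 69.6%, against 32.8% of all genes. The part of this general offset in the counts above was not tested.

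Markers of other muscles were above 0 in difference for all 4 genes, Act79B, TpnC41C, Act87E and TpnC73F (median 1.01), and none passed. Their mean level was 8.19, 9.43 and 7.11 in Act88FKM88, against 6.58, 7.04 and 7.43 in Mhc7 and 6.36, 7.81 and 8.03 in Canton-S, a difference of 1.22 between the mutants with overlapping arrays. TpnC41C, a troponin C of the tubular muscles, had 9.20, 11.24 and 8.52 in Act88FKM88, against 6.59, 6.81 and 7.83 in Mhc7, and its difference of 2.58 ± 0.88 did not pass (adjusted p = 0.22). Act88FKM88 2 was the highest array for these markers, and the part of other muscles in the differences above, those of the calcium handling genes included, was not tested. Of 12 tissue marker lists, 9 had no gene past the threshold. The exceptions were Act88F among the flight muscle markers, Sfp53D, and Cpr66D, the 1 of 86 cuticle and epidermis genes (64 with a mean level under 4) that passed. Among lists without a call, 11 of 14 gut and Malpighian tubule genes had a mean level under 4. So did 13 of 16 neuron and glia, 13 of 14 female, 8 of 9 oenocyte and 48 of 55 head and eye genes. The count was 3 of 11 for fat body and 3 of 8 for trachea. For lists with most genes under 4, no comparison of tissue content can be drawn.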

How the data were processed

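The authors deposited 1 log2 expression value per probe set and array, made by RMA (robust multi-array average) per the submitters' processing notes; its version, and whether all 9 arrays were normalized together, are not given in the sources used here. No read depth applies to arrays, and their number limits the precision. The 3 genotype means were estimated from these values with limma 3.58.1 (R 4.3.3) over the 9 arrays, leaving out 183 control probe sets, and the contrast Act88FKM88 minus Mhc7 was tested two-sided with a moderated variance. The false discovery rate and fold are those of the study. The fit was tested on simulated data: of 100 changes of 3-fold 85 were recovered and of 100 of 6-fold 94, with 2 false calls over 18769 probe sets. The changes were placed in brighter probe sets only, and the noise was drawn separately for each probe set and array. Effects shared by the probe sets of an array were not simulated, so these numbers do not give the error rate in the real data.

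The platform annotation named 1 gene for 13647 probe sets, several for 402 and none for 4720. In the 50 gene lists a gene is represented by its probe set with the highest mean. The members, lists and tests were chosen with earlier results of these data known, and 4 lists were added after these values were seen. Named genes are Act88F, the 15 largest passing differences each way with 1 gene and no overlap, filament genes that passed or are among the 3 largest of their list, and up to 4 members per direction of each other list, or its 2 members of smallest p if no member passed; others were chosen after their values were seen. Gene order on chromosomes is from the RefSeq table of Release 6. Alternatives were other thresholds, normalizations, variance models and samples, SAM, a replicate block, the mean of a gene's probe sets, and leaving out each array.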

Additional observations from a re-analysis of the deposited data

Results flagged for a closer look

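The 14 probe sets for bacterial hybridization controls are not genes of the fly, and no comparison of the report uses them. Their mean log2 level was 8.67 ± 0.13 in Act88FKM88, 10.52 ± 0.13 in Mhc7 and 9.35 ± 0.48 in Canton-S (SD, n = 3 each). They stood out as control values above their level in the wild-type arrays: all 14 were higher in every Mhc7 array than in every Canton-S array. So a control of the arrays differed along the genotypes compared here. The difference between the mutants was -1.85 (exact permutation p = 0.1, two-sided, the smallest that 3 against 3 arrays allow). The part of this in the gene differences was not tested.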

How the results depend on the processing

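The calls depend on the fold limit and on single arrays. Without a fold limit 740 probe sets passed (312 higher and 428 lower), and against a 1.5-fold null (treat) 87 passed (41 and 46), with 1 gene of the mitochondrial ribosome lower. Leaving out 1 array gave 192 to 400 probe sets, 91 to 172 of them higher and 101 to 276 lower, and 6 to 39 mitochondrial ribosomal genes lower; the fewest probe sets passed without Act88FKM88 1. Without both Act88FKM88 3 and Mhc7 2, a setting chosen after the data were seen, 275 passed, 155 higher and 120 lower, and 4 mitochondrial ribosomal genes were lower. Of the passing probe sets 42.3% were higher, against 49.1% with quantile normalization repeated (146 lower; 16 mitochondrial ribosomal genes), 50.2% with the intensity trend of each array removed (19 such genes) and 56.4% without the 2 arrays named. Repeated quantile normalization made the difference of the 95th percentiles 0.0 by construction. SAM called 348 probe sets, 321 of them shared with limma. Of 80 named probe sets that passed, 48 held whichever array was left out, 59 held with quantile normalization repeated, 66 with the trend removed, 77 in SAM and 34 in the test against 1.5-fold.

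Reversals concerned differences that did not pass. Without 1 array Act87E ran from -0.30 to 1.05, Fad2 from -0.22 to 0.0008 and Myo95E from -0.071 to 0.0069. As means over probe sets Mf was 0.72 and Myo95E 0.016. The causes were not tested.

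The replicate block gave 340 probe sets, 148 higher and 192 lower, and 25 mitochondrial ribosomal genes lower. The numbers were not taken to pair the arrays, since deviations of same-numbered mutant arrays correlated at 0.14, 0.43 and 0.03.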

Other observations

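Genes that passed were spread over the chromosomes. Between 1.54% (arm 4) and 2.73% (arm 3L) of the genes of each arm passed in either direction. Among the 100 measured genes nearest to Act88F 3 passed (3.0%), CG14864 as higher and Hsc70-4 and mRpL9 as lower, and among the 100 nearest to Mhc also 3 passed, LSm7 and a long non-coding RNA gene as higher and mRpL4 as lower. Of 11883 adjacent pairs of measured genes, 7 had both members past the threshold in the same direction, and in 2 of these both differences were larger than 2 on the log2 scale: CG18343 with SkpB and Sfp53D with CG15617.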
